A study of Mus musculus with 8 samples.

Results

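Replication initiation sites (ISs) were examined at 10 genes that encode transcription factors of B cells: Pax5, Ebf1, Ikzf1, Bcl11a, Foxo1, Irf4, Irf8, Spib, Pou2af1 and Bach2. An IS was assigned to a gene when it overlapped the gene or the 20 kb on either side of it (GENCODE M1 annotation, mm9 build). This rule gave 31 of 39116 ISs in the table that compares Rif1KO with WT, and 81 of 129937 ISs in the table that compares Rif1KO_shMcm6 with Rif1KO_shLacZ. The 10 genes are among 22367 annotated protein-coding genes, and their windows add up to 1655 kb.

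ISs were mapped by short nascent strand sequencing (SNS-seq), which enriches newly made leading strands by their size and by the protection that their RNA primer gives against lambda exonuclease. All 8 libraries came from asynchronous cultures of CH12, a B lymphoma line of the mouse, stimulated in culture with IL4, CD40 and TGF beta per the labels. The 4 groups of 2 libraries each were wild-type cells (WT), cells lacking RIF1 (Rif1KO), and RIF1-deficient cells that had been infected with a lentivirus and selected with puromycin. The lentivirus expressed a short hairpin that targets either LacZ, as the control (Rif1KO_shLacZ), or Mcm6 (Rif1KO_shMcm6). Both hairpin groups therefore lack RIF1, and replicates were separate frozen vials of a line. Which Rif1KO clone was used for SNS-seq is not given in the sources used here. The files hold 1 value per condition with both replicates pooled, so no replicate error and no test could be had. Intervals below are 95% intervals. Those of densities, ratios and fold changes cover the counting of reads only, and reads include PCR copies. Those of numbers and shares of ISs and of medians over ISs treat ISs as independent, although member ISs cluster in a few windows, so they may be too narrow. No RNA was measured in these files, so whether the 10 genes were expressed was not analysed here.

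Replication origins are licensed in G1 phase by loading the MCM helicase, of which MCM6 is a subunit, and a fraction of licensed origins fires in S phase. RIF1 recruits a protein phosphatase to chromatin and controls replication timing. In mammalian genomes ISs are often found in GC-rich and G-rich DNA and close to active promoters. Of the factors studied here, EBF1, PAX5, Ikaros (Ikzf1), BCL11A and FOXO1 act in the specification of the B cell lineage, whereas IRF4, IRF8, SPI-B (Spib), OCA-B (Pou2af1) and BACH2 govern later steps such as the germinal centre reaction and the choice between class switching and plasma cell differentiation.

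Sequences of 300 bases are shown for the 3 member ISs whose density differed by at least 1.5-fold in a comparison, followed by ISs that had the highest density at their gene or lay at an annotated start. They were read from the mm9 genome (NCBIM37). Capitals mark a G-quadruplex motif, defined as 4 runs of at least 3 G separated by 1 to 7 bases on either strand, so that runs of C stand for a motif on the minus strand. All are shown on the plus strand of the chromosome.

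Spib downstream flank, intron of Mybpc2 (chr7:51761810-51762109, plus strand): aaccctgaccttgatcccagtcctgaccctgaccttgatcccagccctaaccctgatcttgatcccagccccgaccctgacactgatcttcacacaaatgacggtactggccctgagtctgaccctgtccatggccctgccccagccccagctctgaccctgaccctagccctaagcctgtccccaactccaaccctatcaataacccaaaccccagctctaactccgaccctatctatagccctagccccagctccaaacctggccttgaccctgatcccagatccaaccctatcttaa
Ebf1, bases before the annotated start (chr11:44430519-44430818, plus strand): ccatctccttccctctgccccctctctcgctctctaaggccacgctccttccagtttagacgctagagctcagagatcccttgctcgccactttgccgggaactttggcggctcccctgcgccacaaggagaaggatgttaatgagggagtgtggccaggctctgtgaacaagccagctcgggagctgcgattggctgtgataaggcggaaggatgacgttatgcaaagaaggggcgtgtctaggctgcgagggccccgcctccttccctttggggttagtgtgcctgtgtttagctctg
Irf4 downstream flank (chr13:30863721-30864020, plus strand): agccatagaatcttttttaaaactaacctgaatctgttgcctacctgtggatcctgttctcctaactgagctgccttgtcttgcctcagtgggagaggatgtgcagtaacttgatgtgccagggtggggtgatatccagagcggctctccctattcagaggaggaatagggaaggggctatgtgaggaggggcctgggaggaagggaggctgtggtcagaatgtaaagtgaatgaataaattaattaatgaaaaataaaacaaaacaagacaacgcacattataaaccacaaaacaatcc
Irf8 downstream flank, densest IS (chr8:123289008-123289307, plus strand): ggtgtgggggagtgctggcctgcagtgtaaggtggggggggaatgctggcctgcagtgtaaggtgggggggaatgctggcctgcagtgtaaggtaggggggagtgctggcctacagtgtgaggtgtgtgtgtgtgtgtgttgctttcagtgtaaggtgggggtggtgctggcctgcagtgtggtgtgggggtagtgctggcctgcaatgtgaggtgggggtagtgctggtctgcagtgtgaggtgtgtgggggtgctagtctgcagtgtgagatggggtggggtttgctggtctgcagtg
Ikzf1 intron (chr11:11619918-11620217, plus strand): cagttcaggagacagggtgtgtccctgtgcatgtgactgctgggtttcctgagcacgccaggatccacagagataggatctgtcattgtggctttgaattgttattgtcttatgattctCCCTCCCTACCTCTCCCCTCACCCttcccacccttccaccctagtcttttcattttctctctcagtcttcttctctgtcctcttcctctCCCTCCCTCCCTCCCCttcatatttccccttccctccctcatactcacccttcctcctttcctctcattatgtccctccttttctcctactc
Irf8 internal start (chr8:123268657-123268956, plus strand): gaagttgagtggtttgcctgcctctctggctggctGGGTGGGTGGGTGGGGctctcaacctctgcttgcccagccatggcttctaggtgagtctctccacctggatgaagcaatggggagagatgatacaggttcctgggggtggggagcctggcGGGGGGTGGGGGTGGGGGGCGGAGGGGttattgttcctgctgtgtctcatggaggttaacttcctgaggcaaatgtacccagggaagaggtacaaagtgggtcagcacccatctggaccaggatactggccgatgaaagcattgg
Bcl11a, bases before the annotated start (chr11:23977756-23978055, plus strand): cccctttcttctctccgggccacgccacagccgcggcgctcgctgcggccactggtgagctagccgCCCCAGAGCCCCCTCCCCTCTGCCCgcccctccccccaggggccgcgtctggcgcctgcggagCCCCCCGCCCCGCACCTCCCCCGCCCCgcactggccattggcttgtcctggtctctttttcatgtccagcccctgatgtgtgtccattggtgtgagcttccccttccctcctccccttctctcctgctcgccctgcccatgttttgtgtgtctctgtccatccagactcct

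The sequences fall into different kinds. In the Spib flank 58.0% of the bases equalled the base 24 positions further on, and in the Irf8 flank 50% equalled the base 30 positions on, with no motif in either. The best such match over periods of 2 to 60 bases had a median of 36.6% among all ISs of the table of Rif1KO and WT. The stretches before the Ebf1 and Bcl11a starts had GC contents of 58.7% and 68.7% with 14 and 18 CpG dinucleotides.

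Over all member ISs the motif was found in the central 300 bases of 19 of 31 ISs (61.3%) in the table of Rif1KO and WT, against 49.1% of all its ISs. It was found in 22 of 81 member ISs (27.2%) of the table of both hairpins, against 21.5%. The median GC content of member ISs was 52.7% against 46.9% over all ISs in the former table, and 49.6% against 44.4% in the latter. Among ISs within 20 kb of any protein-coding gene and with a GC content in the members' interquartile range, 55.2% and 26.2% held the motif.

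In the table of Rif1KO and WT, 3350255 WT reads and 3724571 Rif1KO reads lay in ISs, and member ISs held 45 to 254 and 56 to 226 of them. In the deeper table of both hairpins, 21071351 Rif1KO_shLacZ reads and 23602750 Rif1KO_shMcm6 reads lay in ISs, and member ISs held 68 to 407 and 65 to 431. Densities are given as RPM, the reads of an IS per 1000000 reads in all ISs of the same table. The tables hold different sets of ISs and were scaled separately, so RPM values were compared only within a table.

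The windows of the 10 genes held 22 ISs in the WT list, 26 in the Rif1KO list, 60 in the Rif1KO_shLacZ list and 72 in the Rif1KO_shMcm6 list. Per 100 kb of window this was 1.33 (Poisson interval 0.833 to 2.01) in WT and 1.57 (1.03 to 2.30) in Rif1KO, where the windows of all protein-coding genes held 1.17 and 1.39. In Rif1KO_shLacZ it was 3.63 (2.77 to 4.67) and in Rif1KO_shMcm6 4.35 (3.40 to 5.48), where all genes held 3.88 and 4.36. The members as a group thus had an ordinary number of ISs for their length in every condition, and each of the 4 intervals contained the value over all genes.

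Single genes differed widely. Ebf1, which encodes a pioneer factor of B cell specification, held 7 ISs in WT, 7 in Rif1KO, 13 in Rif1KO_shLacZ and 17 in Rif1KO_shMcm6. Bcl11a, a zinc finger gene needed for early lymphoid development, held 3, 5, 14 and 16. Bach2, whose product represses the plasma cell programme, held 0, 5, 10 and 13. Spib, the gene of an Ets family factor, held 4, 4, 7 and 6. Irf8, an interferon regulatory factor gene, held 4, 4, 5 and 5. These 5 genes held most of the called ISs of the group in every condition.

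At the other genes few ISs were called. Pax5, the gene of the factor that maintains B cell identity, held 0 in WT, 0 in Rif1KO, 4 in Rif1KO_shLacZ and 6 in Rif1KO_shMcm6, and the nearest IS lay 72.6 kb outside its window in WT and 59.3 kb in Rif1KO. Foxo1, a forkhead gene, held 0, 0, 3 and 3, with the nearest IS 8.37 kb outside the window in WT and in Rif1KO. Pou2af1, the gene of a coactivator of octamer-binding factors, held 0, 1, 2 and 2. Irf4, which is needed for class switching and plasma cells, held 2, 0, 2 and 4, and in Rif1KO the nearest IS was 612 kb away from its window. Ikzf1, the gene of Ikaros, held 2 in WT and 0 in each of the other conditions, where the nearest IS lay 12.7 to 13.0 kb outside its window.

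ISs were unevenly placed within the windows. In the table of Rif1KO and WT the flanks of the 10 genes held 3.50 ISs per 100 kb and the genes themselves 1.35, against 1.94 and 1.60 over all protein-coding genes. For the table of both hairpins the values were 7.75 and 3.99, against 5.43 and 4.71. In the former, 8 of the 14 flank ISs were at Irf8 and Spib, all inside other genes, and the flanks of the other 8 genes held 6, or 1.88 per 100 kb. In the latter, 12 of the 31 flank ISs were at those 2 genes, and the other 8 genes had 5.94 per 100 kb, so in both tables the difference from all genes lay mostly at Irf8 and Spib. Ebf1 had no IS between 116 and 297 kb from its start in the table of both hairpins, and none between 68.1 and 337 kb in the other. Bach2 had none in its first 156 kb in the table of both hairpins, nor in its first 228 kb in the other. In Pax5 a stretch from 55.7 to 181 kb was without an IS. At Foxo1 and Pou2af1 all ISs lay upstream of the gene, and at Spib all 5 ISs of the table of Rif1KO and WT lay in the flanks, within Mybpc2, which encodes a myosin-binding protein, or Pold1, which encodes the catalytic subunit of DNA polymerase delta.

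Member ISs at transcription starts were counted next. Within 1 kb of an annotated start of the member gene itself there were 3 of 31 member ISs in the table of Rif1KO and WT, and 6 of 81 in the table of both hairpins. Counting the starts of all protein-coding genes, there were 4 of 31 (12.9%) and 8 of 81 (9.88%), since 1 and 2 ISs of the Spib flanks lay at starts of its neighbours. Of all ISs, 7.50% and 5.29% lay within 1 kb of such a start, and of those within 20 kb of a protein-coding gene 12.7% and 9.93% did, close to the members' shares. The Bcl11a start had an IS in both tables, the Ikzf1 start only in the former, and the Ebf1 and Spib starts only in the latter. The Irf8 IS of this class lay at an annotated start inside the gene, 8.55 kb from its 5' end in the table of Rif1KO and WT, and 2 more Bcl11a ISs of the other table lay at starts inside that gene, 2.46 and 64.4 kb from its 5' end. No IS was found within 1 kb of a start of Pax5, Foxo1, Irf4, Pou2af1 or Bach2 in either table.

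Summed over the ISs of a window and divided by its length, density was highest at Spib and Irf8 in every condition. In WT it was 406 RPM per 100 kb (interval 375 to 439) at Spib and 370 (344 to 398) at Irf8, followed by Bcl11a with 122 (112 to 132) and Irf4 with 78.1 (66.1 to 91.6). Ebf1 had 47.4 (43.9 to 51.1), Ikzf1 41.8 (35.9 to 48.4), Bach2 29.1 (26.3 to 32.2) and Pou2af1 28.8 (22.2 to 36.7). The intervals overlapped between Spib and Irf8, between Ebf1 and Ikzf1, and between Bach2 and Pou2af1, so those neighbours were not separated. In Rif1KO the order was the same, from 351 (324 to 381) at Spib to 25.1 (19.2 to 32.1) at Pou2af1.

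In Rif1KO_shLacZ, on the other table's scale, the order began with Spib at 161 RPM per 100 kb (153 to 169), Irf8 at 130 (124 to 136) and Bcl11a at 106 (102 to 109). Irf4 had 38.7 (35.3 to 42.4), Pou2af1 35.5 (32.5 to 38.8) and Ebf1 34.8 (33.6 to 36), whose intervals overlapped. Bach2 at 24.0 (23.0 to 25.1), Pax5 at 19.3 (18 to 20.6) and Foxo1 at 17.5 (15.9 to 19.2) came last. In Rif1KO_shMcm6 the same 3 genes led with 162, 128 and 103, and Ebf1 at 34.2 stood before Pou2af1 at 30. Because each window includes 40 kb of flank, most of the window of a short gene such as Spib is flank. By number of ISs, the Spib window held 10.9 per 100 kb in the table of Rif1KO and WT and 19.5 in the other, at the 99.5th and 99.7th percentiles of protein-coding windows, and Irf8 stood at the 94.9th and 91.0th.

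**Figure D1:**
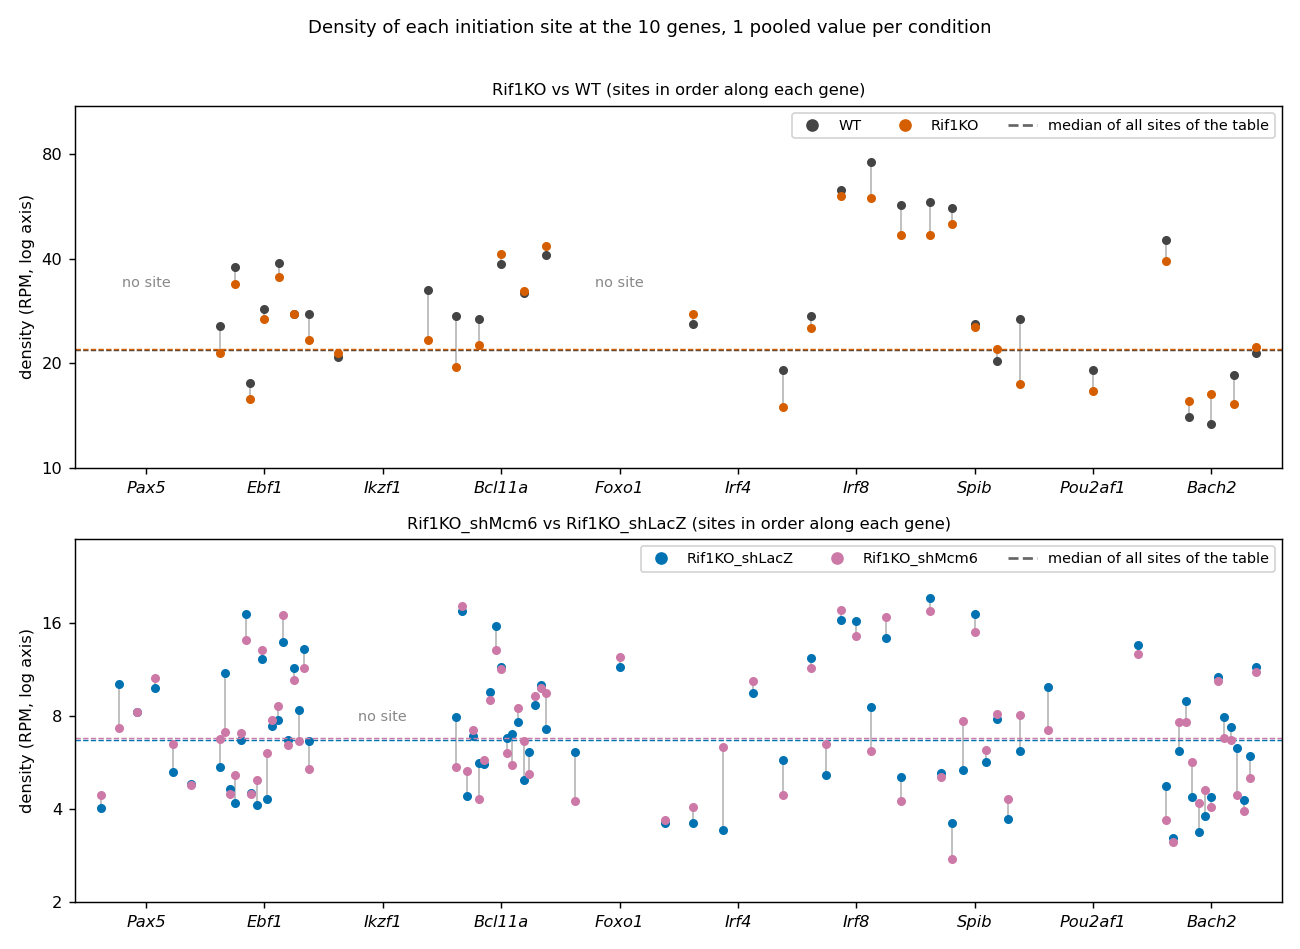
Density in RPM (log axis) of every member IS, ordered along each gene, in both conditions of a table. Grey lines join the values of 1 IS, dashed lines are the medians over all ISs of the table, and each point is 1 pooled value. The downstream ISs of Irf8 and 2 ISs of Spib stand above the others in the table of Rif1KO and WT.

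The comparison of Rif1KO with WT asks whether loss of RIF1 changes how often replication starts at these genes. All 8 genes that held an IS in this table had a somewhat lower summed density in Rif1KO, with ratios from 0.839 at Ikzf1 to 0.966 at Bach2. The sign turned under some other setting, within the counting interval, at 5 of the 8. The log2 ratio became 0.040 at Ikzf1 and 0.044 at Bach2 without the IS with the most reads, 0.072 at Bcl11a with ISs called in both conditions only, 0.091 at Irf4 without flanks and 0.041 at Pou2af1 with flanks of 50 kb. Only at Irf8 (ratio 0.861, interval 0.776 to 0.955) and Spib (0.865, 0.772 to 0.969) did the counting interval exclude 1. That at Irf8 rests on its flank, since without flanks 1 IS remained, with a log2 fold change of −0.12 (−0.55 to 0.31), and without the IS with the most reads the log2 ratio was −0.15 (−0.34 to 0.03). Spib held no IS without flanks. Among the 11773 protein-coding genes with an IS in their window, the ratios at Irf8 and Spib stood at the 21.1st and 22.0th percentiles. The share of those genes whose counting interval excludes 1 was not computed. Of the 8 genes, 0 were higher and 0 were lower by at least 1.5-fold, which allows a share of up to 37.5%. Of the 11773 protein-coding genes with an IS in their window, 0.552% were higher and 2.75% lower by that fold. Over those genes the median log2 ratio was −0.05, and 61.2% were below 0.

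By single IS, 0 of 31 member ISs were higher in Rif1KO by at least 1.5-fold (up to 9.68%), beside 2.27% of all ISs. Lower by that fold was 1 of 31 (3.23%, Wilson interval 0.571 to 16.2%), beside 2.7% of all ISs. The median log2 fold change of member ISs was −0.15, with an order-statistic interval of −0.25 to −0.01, and 22 of 31 (71.0%) were negative. Over all ISs the median was 0.02 and 47.5% were negative. Over ISs within 20 kb of a protein-coding gene the median was −0.02, over those within the members' range of GC content −0.04, and over ISs within 1 kb of a protein-coding start −0.13. On the members' chromosomes the median of all ISs ran from −0.03 (chromosomes 7 and 11) to 0.05 (chromosome 3). Members lay at or above the median density of the table in 22 of 31 cases (71.0%). The counting interval of the fold change lay below 0 at 5 of 31 member ISs (16.1%) and above 0 at none, against 5.40% and 4.67% of all ISs. Of these 5, only that in an intron of Ikzf1 lies in its member gene. The others lie in flanks inside other genes, namely A830031A19Rik near Bcl11a, Gm20388 near Irf8, and Mybpc2 and Pold1 near Spib.

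At Irf8, 3 ISs lie downstream of the gene inside the overlapping transcript model Gm20388, and 2 of them were the densest member ISs of this table in both conditions. The densest in WT, at chr8:123288786-123289529, had 75.8 RPM in WT (254 reads) and 59.6 RPM in Rif1KO (222 reads), a log2 fold change of −0.35 (−0.61 to −0.08). Its neighbour at chr8:123287640-123288352 had 63.0 and 60.7 RPM, the highest value in Rif1KO, and that at chr8:123295167-123296025 had 57.0 and 46.7 RPM. The IS at the internal start, chr8:123268528-123269085, was less dense, with 27.5 and 25.2 RPM. All 4 were lower in Rif1KO, and only the IS at chr8:123288786-123289529 by more than its counting interval.

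At Spib the 2 densest ISs had 58.2 and 46.7 RPM (upstream, in Pold1, at chr7:51794372-51795206, log2 fold change −0.32, −0.62 to −0.01) and 55.8 and 50.2 RPM (downstream, in Mybpc2, at chr7:51776532-51777228, −0.15). The IS at chr7:51761754-51762164, whose sequence is shown first, had 26.9 and 17.5 RPM (90 and 65 reads), a log2 fold change of −0.62 (−1.11 to −0.15). It was the 1 member IS past the threshold, and it lies 25.5 kb from the Spib start within Mybpc2. The IS at chr7:51770506-51770962 had 20.3 and 22.0 RPM, a log2 fold change of 0.12 whose counting interval contained 0.

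At Ikzf1, the intronic IS at chr11:11619866-11620268 had 32.5 and 23.4 RPM (109 and 87 reads; −0.48, −0.90 to −0.06), while the IS at its start, chr11:11585937-11586304, had 20.9 and 21.5 RPM. At Bcl11a the upstream IS at chr11:23970263-23970629, inside A830031A19Rik, had 27.5 and 19.6 RPM (−0.49, −0.95 to −0.03). The start IS at chr11:23977695-23978208 had 26.9 and 22.6 RPM. The intronic IS at chr11:24020946-24021606 had 38.5 and 41.3 RPM (0.10, −0.24 to 0.45). The densest Bcl11a IS, in the downstream flank at chr11:24089012-24089688, had 40.9 and 43.5 RPM (0.09, −0.25 to 0.43). Both of these differences lay inside counting error, and the summed log2 ratio of the Bcl11a window was −0.06 (−0.23 to 0.11).

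At Ebf1 all 7 ISs were lower in Rif1KO, by log2 fold changes of −0.26 to −0.01, none beyond its own interval. The densest, at chr11:44811608-44812144, had 38.8 and 35.4 RPM, and the window summed to 204 and 184 RPM, a log2 ratio of −0.15 (−0.30 to 0.01). At Irf4 the intronic IS at chr13:30845471-30845944 had 26.0 and 27.7 RPM and the downstream IS 19.1 and 15.0 RPM. Pou2af1 had 1 IS, with 19.1 and 16.6 RPM. Bach2 had 3 ISs that were higher and 2 that were lower in Rif1KO, from −0.27 to 0.29, and its densest, at chr4:32553289-32553902, had 45.4 and 39.5 RPM.

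**Figure D2:**
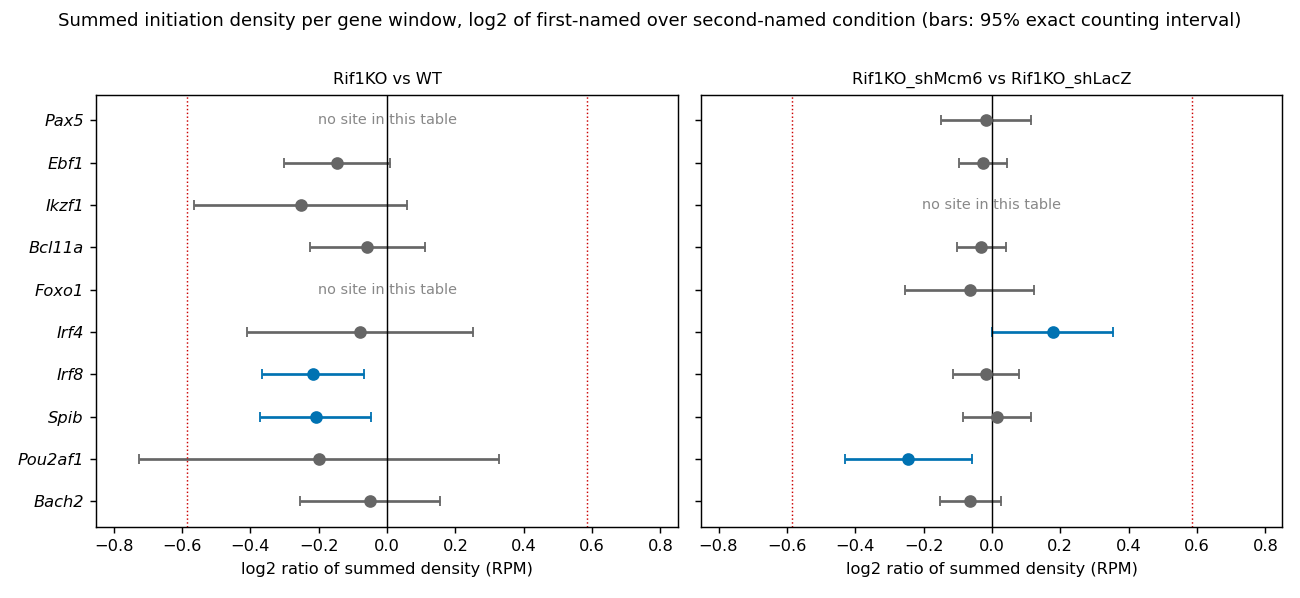
Log2 ratio of the summed RPM of each gene window (points) with 95% exact counting intervals (bars) for both comparisons. Blue marks intervals that exclude 0, and dotted lines mark 1.5-fold. In the table of Rif1KO and WT all 8 points lie left of 0, and in the table of both hairpins points lie on both sides, with Irf4 the highest and Pou2af1 the lowest.

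The comparison of Rif1KO_shMcm6 with Rif1KO_shLacZ asks what depletion of MCM6 adds in cells without RIF1. At most of the genes the summed density differed by less than counting error. The ratio was 0.844 at Pou2af1 (interval 0.743 to 0.960) and 1.13 at Irf4 (1.001 to 1.28), and between 0.956 and 1.01 at Pax5, Ebf1, Bcl11a, Foxo1, Irf8, Spib and Bach2, where each interval contained 1. Among protein-coding genes with an IS, the ratios at Pou2af1 and Irf4 stood at the 9.99th and 90.7th percentiles. The share of those genes whose interval excludes 1 was not computed. Without flanks neither Pou2af1 nor Irf4 held an IS, so both ratios rest on flank ISs. With flanks of 50 kb, with ISs called in both conditions only, without the lowest 25% of densities and without the IS with the most reads, the interval at Irf4 contained 1 and that at Pou2af1 did not. With ISs called in both conditions only, the intervals at Ebf1, Bcl11a and Bach2 also lay below 1, and with flanks of 50 kb that at Irf8 lay below and that at Spib above it. Without the IS with the most reads the log2 ratio at Foxo1 went from −0.06 to −0.30 (−0.59 to −0.0032), which excluded 0. Ikzf1 held no IS in this table. Of 9 genes, 0 were higher and 0 lower by at least 1.5-fold (up to 33.3%), beside 0.546% and 0.205% of 17596 genes. The median over all genes was −0.05, and 64.0% were below 0, against 7 of 9 members.

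Of 81 member ISs, 1 (1.23%, 0.218 to 6.67%) was higher by at least 1.5-fold beside 4.8% of all ISs, and 1 was lower beside 1.51%. The median log2 fold change was −0.03 (−0.10 to 0.07) against −0.01 over all ISs, and 43 of 81 (53.1%) were negative against 51.6%. The counting interval excluded 0 at 8 ISs above and 10 below (9.88% and 12.3%), against 12.6% and 11.3% of all ISs. Member ISs as a group were thus close to the table as a whole, and 41 of 81 lay at or above its median density.

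The member IS with the highest fold change lies in the downstream flank of Irf4 at chr13:30863514-30864226, 22.8 kb from the start of the gene. It had 3.42 RPM in Rif1KO_shLacZ (72 reads) and 6.36 RPM in Rif1KO_shMcm6 (150 reads), a log2 fold change of 0.90 (0.48 to 1.32). Its density in Rif1KO_shLacZ stood at the 6.48th percentile of the table, and it was called only in Rif1KO_shMcm6. The other 3 Irf4 ISs had log2 fold changes of −0.38 to 0.17, and the densest had 9.54 and 10.4 RPM. Without ISs in the lowest 25% of densities the Irf4 log2 ratio went from 0.18 to −0.044.

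The member IS with the lowest fold change lies at the Ebf1 start, chr11:44430350-44431037. It had 11.1 RPM in Rif1KO_shLacZ (233 reads) and 7.12 RPM in Rif1KO_shMcm6 (168 reads), a log2 fold change of −0.64 (−0.93 to −0.34), and was called in both. The other 17 Ebf1 ISs spanned −0.34 to 0.50, and the densest, at chr11:44498324-44499298, had 17.1 and 14.1 RPM. The summed Ebf1 density was 149.97 and 147.3 RPM, so the window as a whole differed by less than counting error. The IS at the start held 7.37% of the reads of the window in Rif1KO_shLacZ.

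The other ISs at annotated starts stayed within 1.5-fold. The Bcl11a start IS, chr11:23977457-23978639, was the densest of its gene and had 17.6 and 18.3 RPM (371 and 431 reads; 0.05, −0.15 to 0.26). The Irf8 internal start IS had 12.4 and 11.4 RPM, and the Spib start IS at chr7:51786879-51787536 had 5.22 and 5.08 RPM. Of these 6 start ISs 4 had a negative fold change, and 1 was lower by at least 1.5-fold. Of all ISs at protein-coding starts in this table, 56.3% were negative and 3.67% lower by that fold, and 6 ISs are too few to set beside these shares.

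Among member ISs of at least median density, the highest fold changes were in the downstream flank of Bcl11a at chr11:24074559-24075434 (7.26 and 9.53 RPM; 0.39, 0.09 to 0.70), at the Mybpc2 IS near Spib, chr7:51761617-51762309 (6.17 and 8.09 RPM; 0.39, 0.06 to 0.72), and in Bach2 at chr4:32494894-32495646 (6.17 and 7.67 RPM; 0.31, −0.02 to 0.65). The lowest beside the Ebf1 start were upstream of Pax5 at chr4:44732923-44733441 (10.2 and 7.33 RPM; −0.48, −0.77 to −0.18) and upstream of Pou2af1 at chr9:51009883-51010460 (9.97 and 7.20 RPM; −0.47, −0.77 to −0.17). The second Pou2af1 IS, chr9:51013641-51014642, had 13.6 and 12.7 RPM, so both ISs of that gene were lower. The Mybpc2 IS near Spib, the lowest in Rif1KO against WT, was thus among the highest in Rif1KO_shMcm6 against Rif1KO_shLacZ. In the central 300 bases of the Bcl11a flank IS, 79.6% equalled the base 50 positions on, against a median of 35.1% over all ISs. That Bcl11a IS was called only in Rif1KO_shMcm6.

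The remaining densest ISs of each gene differed by less than their counting intervals. In Pax5 it lies in the gene at chr4:44668581-44669429 with 9.87 and 10.6 RPM, and upstream of Foxo1 at chr3:52055538-52056272 with 11.6 and 12.5 RPM. Downstream of Irf8, chr8:123287623-123288352 had 16.5 and 17.7 RPM. In the Pold1 gene upstream of Spib, chr7:51794351-51795292 had 19.3 and 17.5 RPM, the highest value of any member IS in Rif1KO_shLacZ, whereas in Rif1KO_shMcm6 the Bcl11a start IS had the highest. In the downstream flank of Bach2, chr4:32681042-32681769 had 11.5 and 11.1 RPM.

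**Figure D3:**
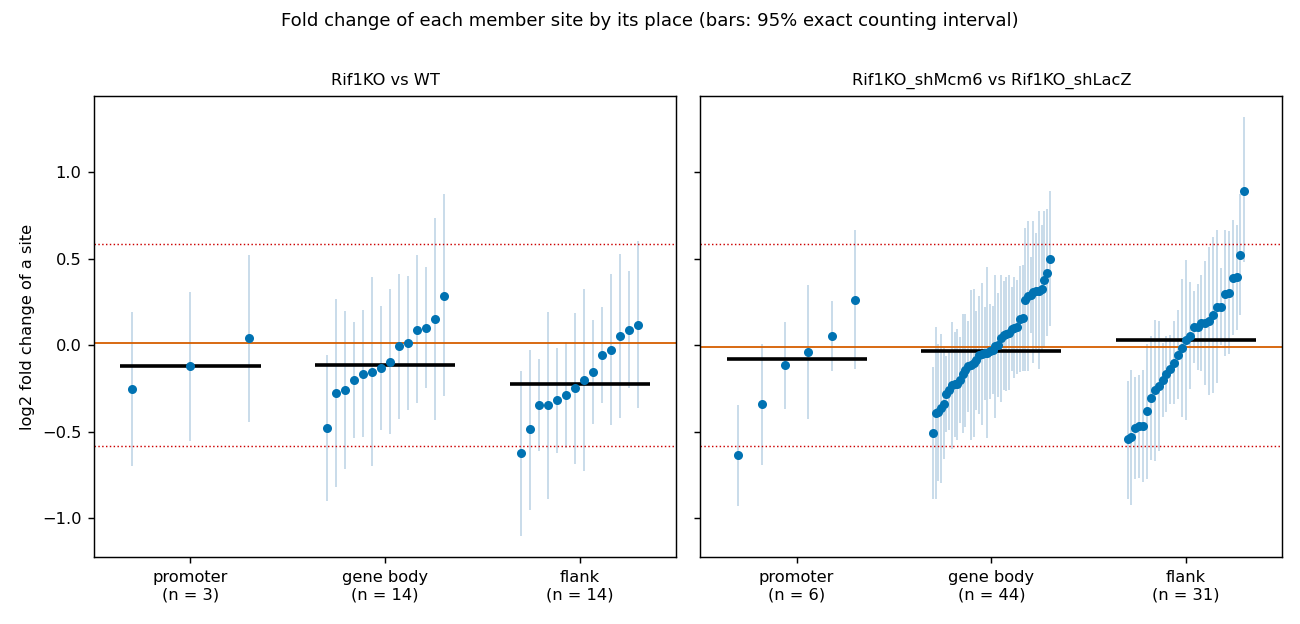
Log2 fold change of each member IS (points) with its 95% exact counting interval (bars), by place: within 1 kb of an annotated start of the gene, elsewhere in the gene, or in its flanks. Black lines are medians, the orange line is the median of all ISs, and dotted lines mark 1.5-fold. In the table of Rif1KO and WT the medians of all 3 places lie below the orange line (−0.12, −0.11 and −0.22), and in the table of both hairpins they lie at −0.08, −0.03 and 0.03.

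In the table of Rif1KO and WT, whether an IS was called in a condition did not always follow its density at these genes. All 5 Bach2 ISs of the table of Rif1KO and WT were called only in Rif1KO, yet they held 45 to 152 reads in WT and their summed ratio was 0.966. Conversely, both Ikzf1 and both Irf4 ISs were called only in WT, with ratios of 0.839 and 0.947. Of the 31 member ISs 9 (29.0%) were called only in Rif1KO and 5 (16.1%) only in WT, beside 34.1% and 14.2% of all ISs. The 9 called only in Rif1KO had a median log2 fold change of −0.20, where all ISs called only in Rif1KO had 0.18. The 5 called only in WT had −0.35, where all such ISs had −0.25. WT reads were 59 to 254 at the 22 ISs called in WT and 45 to 152 at the 9 that were not. The lists keep an IS only inside a cluster of ISs, and the part of that filter in these calls was not tested.

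Calls and fold changes went together in the table of both hairpins, as they did over all its ISs. The 21 member ISs (25.9%, beside 23.1% of all ISs) called only in Rif1KO_shMcm6 had a median of 0.26 (all such ISs 0.24), and the 8 (9.88%, beside 11.1%) called only in Rif1KO_shLacZ had −0.25 (all such ISs −0.22). The densest Spib IS, with 407 and 414 reads, was among the latter, so a missing call did not mean a missing signal there either.

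The same IS could be followed in all 4 conditions where the tables overlapped. Of the 31 member ISs of the table of Rif1KO and WT, 25 (80.6%) overlapped a member IS of the other table, which were 30.9% of its 81. Over all ISs the shares were 83.5% and 24.8%, and over ISs near protein-coding genes 82.6% and 27.2%, so the members overlapped about as often as others. Since the tables were scaled separately and hold 39116 and 129937 ISs, percentiles of density among all ISs of a table give the place of an IS in its own list, and a difference between tables is not a change in activity. Of all 32715 overlapping pairs of ISs, 73.1% stood higher in both hairpin conditions than in both others, 6.09% stood lower and 20.8% overlapped. Of the 25 member pairs 13 stood higher (52.0%), 5 lower (20%) and 7 overlapped (28%).

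The 3 downstream Irf8 ISs and the 2 densest Spib ISs stood between the 93.6th and the 98.8th percentile in all 4 conditions. The Bcl11a start IS stood at the 68.8th in WT and the 52.7th in Rif1KO, and at the 97.3rd and 97.9th in the hairpin conditions, where its peak was 1183 bp wide against 514 bp. The Pou2af1 IS stood at the 35.7th and 21.0th, and at the 92.2nd and 90.6th, with widths of 320 and 1002 bp. An Ebf1 IS at chr11:44829083-44829633 stood at the 71.2nd and 56.1st, and at the 49.3rd and 31.6th, with widths of 551 and 547 bp, and a Spib IS at chr7:51772358-51772749 at the 66.1st and 64.2nd, and at the 37.4th and 43.2nd, with 392 and 344 bp. RPM was not divided by the width of an IS. The median width was 471 and 713 bp over the member pairs, and 448 and 743 bp over all pairs. The part of width, list length and depth in these places was not tested.

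**Figure D4:**
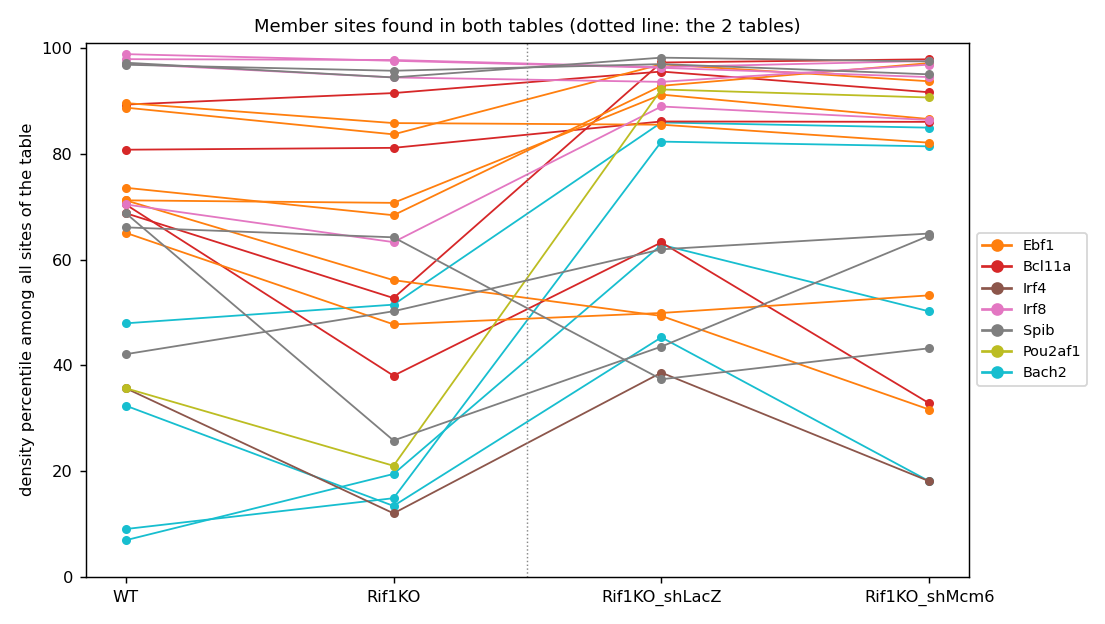
Percentile of the density of the 25 member ISs found in both tables, among all ISs of the table (y axis), in the 4 conditions (x axis). Each line is 1 IS, coloured by gene, and the dotted line separates the tables. The 3 downstream Irf8 ISs and the 2 densest Spib ISs stay at the top. Of the 25 ISs, 13 (52.0%) stand higher in both hairpin conditions, against 73.1% of all overlapping pairs.

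Other genes of the B cell regulatory network were described in the same way. Of 36 further B cell transcription factor genes 34 were matched by symbol, and 24 and 32 of these had an IS in the 2 tables. Their median log2 ratio was −0.06 in Rif1KO against WT, with 20 of 24 below 0 and 2 lower by at least 1.5-fold, and −0.08 in Rif1KO_shMcm6 against Rif1KO_shLacZ, with 23 of 32 below 0 and none past that fold. The lowest in the former was Tcf3, the gene of the E2A proteins, at −0.75, and the highest Runx1 at 0.31. In the latter the lowest was Batf at −0.46 and the highest Mef2c at 0.24.

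Of 18 transcription factor genes of other blood lineages 10 and 16 had an IS, with medians of −0.13 and −0.07. The highest in the former comparison was Nfe2 (0.41, 1 IS), and in the latter they ran from Cebpe (−0.23) to Nfe2 (0.13). Of 22 paralogues of the members 17 and 20 had an IS, with medians of −0.06 and −0.06, from Irf9 (−0.43) to Pax9 (0.36) and from Foxo4 (−0.23) to Pax3 (0.27). For the 8 and 9 members with an IS the medians were −0.17 and −0.03. No list was tested against another.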

How the data were processed

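SNS-seq was performed in 8 CH12 libraries, 2 per group. The authors trimmed the reads with Trim Galore 0.6.4 and cutadapt 2.6 and aligned them to mm9 with Bowtie 1.2.3, per the submitters' processing notes, keeping unique alignments, so that reads matching several places are not counted. Peaks were called with MACS per replicate without an input library, intersected with BedTools, kept only inside ClusterScan clusters and merged per contrast. The deposited values are log2 RPM, 1 value per condition with replicates pooled by the authors in a way that is not stated, and the linear values sum to 1000000. Each was a whole multiple of 1 read (tolerance 1e-06) for 100% of ISs, so pooled reads were recovered. The deposited column of the authors' fold-change category was not used.

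Fold changes are the log2 value of the first-named minus that of the second-named condition, and 1.5-fold was the threshold, as in the study. Because there was no replicate value, no test was made. Exact (Clopper-Pearson) intervals were used for ratios, Wilson intervals for shares and Poisson intervals for counts of ISs. For a count of 0, the limit given after "up to" is instead 3 divided by the number of ISs or genes, an approximate 1-sided limit. For the 0 of 31 member ISs higher in Rif1KO, the upper Wilson limit was 11.0%. The ISs named are the densest of each gene and table, the densest at an annotated start, and the 3 highest and 3 lowest by fold change among member ISs of at least median density. ISs past the threshold, the overlapping neighbours and ISs that differed between calls and densities were named after their values had been seen. The members and gene lists were chosen with earlier results of these data known. A pseudogene row also named Ebf1 was not used as a member. Alternatives covered thresholds, a pseudocount, centring, a density filter, flanks, overlap and calls. Python 3.11.15, numpy 2.4.6, pandas 2.3.3 and scipy 1.17.1 were used, and the calculation was tested on simulated data. A gene of another list and a sequence are not reported here.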

Additional observations from a re-analysis of the deposited data

How the results depend on the processing

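Results were recomputed under other settings. The 2 medians stayed inside their main intervals under all 35 alternatives, as did the 4 numbers of ISs per 100 kb under 12, and of 140 recomputed gene ratios 131 stayed inside. The median of −0.15 in Rif1KO against WT became −0.094 with flanks of 50 kb, and that of −0.028 in Rif1KO_shMcm6 against Rif1KO_shLacZ became 0.0033 when centred on the chromosome median and 0.016 without Bach2. A gene interval that excluded 0 changed sign at Irf4 in Rif1KO_shMcm6 against Rif1KO_shLacZ, where the log2 ratio of 0.18 became −0.044 without the lowest 25% of densities, −0.044 with ISs called in both conditions only and −0.057 with flanks of 50 kb. The other 6 outside the main interval were at Foxo1, Irf8, Spib and Pou2af1 in the same comparison. Of these Spib, whose main interval contained 0, went from 0.014 to −0.17 without flanks and with ISs overlapping no other protein-coding gene. Counting these, the sign of a gene ratio turned under some setting at 5 genes in Rif1KO against WT and at 7 in the other comparison. In Rif1KO against WT the interval at Irf8 contained 0 without flanks (−0.12, −0.55 to 0.31) and without the IS with the most reads, and Spib had no value without flanks.

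The counts past 1.5-fold rest on single ISs. The 1 lower IS in Rif1KO against WT became 5 at a log2 threshold of 0.32, and 0 at 2-fold, without flanks, with ISs called in both conditions, with ISs overlapping no other protein-coding gene, or without Spib. The 1 higher IS in Rif1KO_shMcm6 against Rif1KO_shLacZ became 8 at 0.32, 5 with flanks of 50 kb, and 0 at 2-fold, without the lowest 25% of densities, without flanks, with ISs called in both conditions, or without Irf4. The 1 lower IS became 13 at 0.32, 4 with flanks of 50 kb, and 0 at 2-fold, with log2(RPM + 1), or without Ebf1. The settings that left out a gene or overlaps with other genes were added after seeing the data. The depth of 45 to 254 reads at a member IS in the table of Rif1KO and WT leaves changes under 1.5-fold at single ISs mostly inside counting error.

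No paired analysis was possible because the files hold 1 pooled value per condition. The fits with a replicate block and those leaving out each replicate were not run for the same reason.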
